A study of Mus musculus with 8 samples.

Results

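The genes described here encode the urea cycle and the enzymes that break down amino acids in the liver. They were taken from a list of 49 symbols of these pathways, and 48 of these were among the 23337 gene symbols of the count files. The symbol *Gstz1x* was not among them and was skipped. All 48 passed the filter on low counts and were tested together with the other genes, 14328 in all. They fall into 10 pathway groups: urea cycle (7 genes), glutamate and transamination (6), tyrosine (4), tryptophan (4), serine, glycine and glyoxylate (4), proline (3), methionine and methyl transfer (9), cysteine to taurine (2), histidine (4), and lysine and branched-chain amino acids (5).

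The liver removes the amino groups of surplus amino acids by transamination onto glutamate, and glutamate dehydrogenase releases them as ammonia in the mitochondrial matrix. Carbamoyl phosphate synthetase 1 (*Cps1*), with its activator N-acetylglutamate made by *Nags*, and ornithine transcarbamylase (*Otc*) start the urea cycle in the matrix, and the enzymes encoded by *Ass1*, *Asl* and *Arg1* complete it in the cytosol. The remaining carbon skeletons enter gluconeogenesis, ketone production or the citric acid cycle, and many of these enzymes are known to be regulated in liver by fasting, glucagon and glucocorticoids.

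RNA-seq was performed on liver from C57BL/6 mice, 12 weeks old, in 4 groups with 2 libraries each. Mice of both genotypes, WT and HRD1Alb, had fasted overnight, and those of the refed groups then had food again for 4 h. HRD1 is an E3 ubiquitin ligase of the endoplasmic reticulum, encoded by *Syvn1*. HRD1Alb mice carry a floxed *Syvn1* gene and Cre under the albumin promoter, which is active in hepatocytes. Which other cells of the liver keep the gene was not tested. The study describes its controls as floxed mice without Cre, and the sample labels call them WT. Values are CPM (counts scaled to a common library size after TMM normalisation), given per library or as mean ± SD (n = 2). Nothing in the labels says how the 2 libraries of a group relate to animals or cultures beyond being separate samples, so p-values measure the spread between these samples.

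Library totals were between 40210576 and 49117080 counts, at which 3 counts correspond to 0.0508 to 0.0788 CPM, and the 48 genes took 3.32% to 5.05% of all counts. *Syvn1* itself was at 111 and 99.8 CPM in fasted WT liver and at 32.6 and 31.5 CPM in fasted HRD1Alb liver. In refed liver it was at 637 and 305 CPM in the WT libraries and at 453 and 132 CPM in the libraries labelled HRD1Alb. The groups overlapped there, so the count over the whole gene did not separate the genotypes of the refed libraries, and the deleted exons cannot be read from a count per gene. Every direction given below for refed liver therefore rests on the labels. The 2 refed HRD1Alb libraries also stood apart from each other: 3204 genes differed 2-fold or more between them, against 424 to 1141 within the other groups, and their ratio followed transcript length (Spearman rho = -0.56 across genes, which are not independent replicates). Of the 48 genes, 21 differed over 1.5-fold between these 2 libraries, against 0 to 4 in the other groups. The widest gap downward was that of *Cps1*, at 3048 and 1101 CPM.

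Per kilobase of transcript, the scale on which genes can be compared with each other, the highest mean levels over the 8 libraries were those of *Mat1a* at 2559 CPM per kb, *Hpd* at 1911, *Gnmt* at 1272, *Arg1* at 1244 and *Cdo1* at 1149. These encode methionine adenosyltransferase, 4-hydroxyphenylpyruvate dioxygenase, glycine N-methyltransferase, arginase and cysteine dioxygenase. At the low end stood *Bcat2* at 21.4, *Sdsl* at 16.8 and *Ass1* at 0.605 CPM per kb. *Ass1* encodes argininosuccinate synthase, an abundant enzyme of liver, and its listed values of 0.563 to 2.67 CPM are uncertain. In the reference transcripts, 55.3% of its 50-base words also occur in *Gm5424*, and the counts do not show how such reads were assigned. The same limit holds for *Ahcy* (77%), *Aldh4a1* (35.5%), *Got2* (32.3%), *Bhmt* (11.8%) and *Glud1* (8.17%). Reads of overlapping genes on the opposite strand cannot be told apart from those of *Bckdha* (61.7% of exonic bases overlapped), *Sds* (29.6%), *Aldh6a1* (18.6%), *Bcat2* (15.9%), *Nags* (15.6%), *Got2* (9%), *Csad* (7.26%) or *Dmgdh* (6.3%), since no strand setting is stated. *Aldh4a1* shares 32.5% of its exonic bases with *Gm21969* on the same strand.

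**Figure D1:**
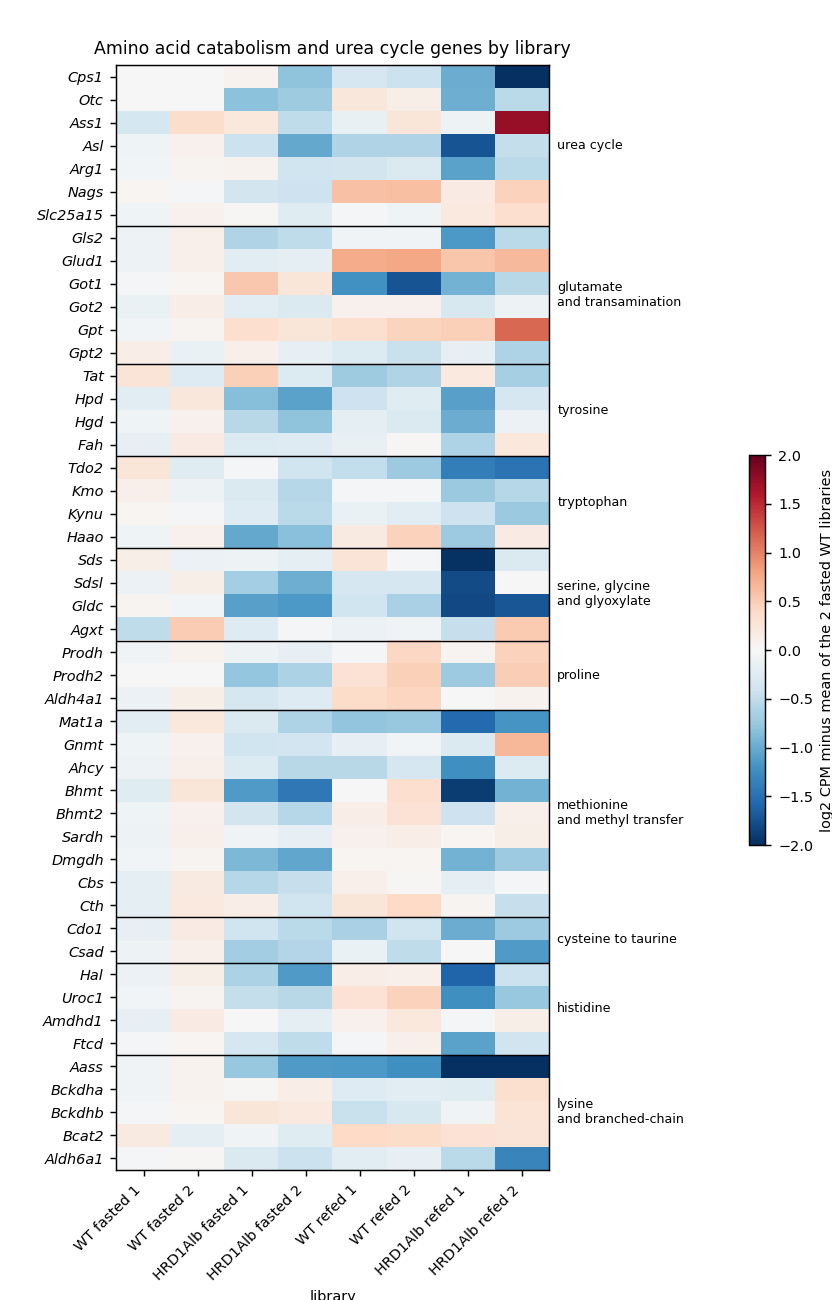
Heat map of the 48 genes (rows, grouped by pathway) in the 8 libraries (columns); colour gives log2 CPM minus the mean of the 2 fasted WT libraries, and colours saturate at 2 in either direction. Blue, lower than fasted WT, predominates in the 4 HRD1Alb columns, and the 2 refed HRD1Alb columns differ from each other in 21 genes by over 1.5-fold.

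The first question was whether liver deletion of HRD1 goes with other mRNA levels of these enzymes. In fasted liver, 2 of the 48 genes were lower in the HRD1Alb libraries at an adjusted p under 0.05 (edgeR's quasi-likelihood test with Benjamini-Hochberg adjustment over the 14328 genes) and 0 were higher, where 0.433% of all tested genes were called lower and 0.921% higher. The 2 were *Gldc*, which encodes the glycine decarboxylase subunit of the glycine cleavage system, and *Dmgdh*, which encodes dimethylglycine dehydrogenase. In refed liver, 6 were lower, namely *Gldc*, *Dmgdh*, *Otc*, *Bhmt*, *Uroc1* and *Aass*, and 0 were higher, where 4.84% of all tested genes were called lower and 7.09% higher. The fold changes of these calls lay between 0.345 (*Bhmt*, refed) and 0.55 (*Dmgdh*, refed).

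Beyond the calls, the estimate was below 0 for 43 of the 48 genes in fasted and for 38 in refed liver. Of all 14328 tested genes, it was below 0 for 7479 in fasted and 6824 in refed liver. Both HRD1Alb libraries lay below both WT libraries for 31 genes in fasted liver and above them for 3, where 34.2% and 30.6% of all tested genes did so. In refed liver this held for 27 below and 4 above, against 30.1% and 30.7% of all tested genes. The median log2 fold change of the 48 genes was -0.39 in fasted liver, beside -0.02 over all tested genes, and -0.34 in refed liver, beside 0.04. The refed median was -0.15 without HRD1Alb refed replicate 1, beside 0.00 over all genes, and -0.52 without HRD1Alb refed replicate 2, beside 0.00. The medians also depended on the scaling. With library size alone, which moves the median of all genes to 0.36 in fasted and 0.26 in refed liver, the median of the 48 genes was -0.01 and -0.15, so the distance from all genes was -0.36 and -0.41. With the transcript length offset, the median of the 48 genes was -0.43 in fasted liver, beside -0.06 over all genes. In refed liver it was -0.54, beside -0.02. The TMM factors were 0.837 to 0.952 in the WT and 0.992 to 1.22 in the HRD1Alb libraries.

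Summed markers of hepatocytes, Kupffer cells and macrophages, stellate cells and lymphocytes did not overlap between genotypes in either feeding state. Those of endothelium and neutrophils overlapped in fasted liver, and those of cholangiocytes in refed liver. Single markers were less uniform. All 7 Kupffer cell and macrophage and all 5 stellate cell markers were apart and higher in HRD1Alb liver in both states. Of the 6 hepatocyte markers, 6 were apart and lower in fasted and 4 in refed liver, where 2 overlapped. Of the 4 lymphocyte markers, 2 were apart and higher in fasted and 3 in refed liver, and the others overlapped. Of all tested genes, 30.6% and 30.7% were apart and higher in fasted and refed liver, and 34.2% and 30.1% lower. The summed level of the 6 measured hepatocyte markers was 133155 to 145877 CPM in fasted WT and 81726 to 85976 CPM in fasted HRD1Alb liver, and 109278 to 115205 against 61437 to 102902 CPM in refed liver. The 7 Kupffer cell and macrophage markers summed to 91 to 102 CPM against 234 to 313 CPM in fasted liver, and to 105 to 108 against 204 to 416 CPM in refed liver. The 5 stellate cell markers summed to 177 to 341 against 413 to 427 CPM and to 167 to 202 against 340 to 418 CPM. The 5 endothelial markers summed to 83.7 to 92.8 against 91.3 to 102 CPM in fasted liver, and to 86.6 to 99.9 against 105 to 107 CPM in refed liver. Of these 5, 2 were apart and higher in refed HRD1Alb liver and 3 overlapped. The 2 measured neutrophil markers summed to 0.923 to 1.27 against 1.2 to 1.56 CPM and to 0.889 to 1.47 against 2.66 to 8.33 CPM, the 4 lymphocyte markers to 1.29 to 1.5 against 2.19 to 2.72 CPM and to 1.5 to 1.85 against 2.42 to 4.06 CPM, and the 5 cholangiocyte markers to 42.3 to 68.3 against 32.7 to 37 CPM and to 32.1 to 36 against 29.1 to 52.9 CPM. None of these markers was at 0 in every library. In bulk liver, fewer cells of a type and less RNA per cell cannot be told apart, and the part of these shifts in the values of the amino acid genes was not tested.

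The counts of calls depended on single libraries. In the fits with 1 library left out, the share of all tested genes called fell where the count among the 48 fell, and rose where it rose. In fasted liver the 2 calls became 0 when any 1 fasted library or any 1 refed WT library was left out, and 20 when either refed HRD1Alb library was left out, fits that called 21.7% and 21.3% of all tested genes. In refed liver the 6 became 0 without either refed WT library and 2 or 3 without any 1 fasted library, and 2.83% to 5.28% of all genes were called in the latter fits. Without HRD1Alb refed replicate 2 it was 21 lower and 0 higher, where 11.7% of all genes were called lower and 11.9% higher. Without HRD1Alb refed replicate 1 it was 15 lower and 6 higher, where 27.8% were called lower and 25% higher. A fit to the 4 refed libraries alone called 0 of the 48 and 0 of all genes, and one to the 4 fasted libraries alone called 14 lower, beside 6.32% of all genes. With 2 libraries against 2, an exact two-sided permutation test cannot go below p = 0.333, so the calls depend on a spread estimated with information from other genes.

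**Figure D2:**
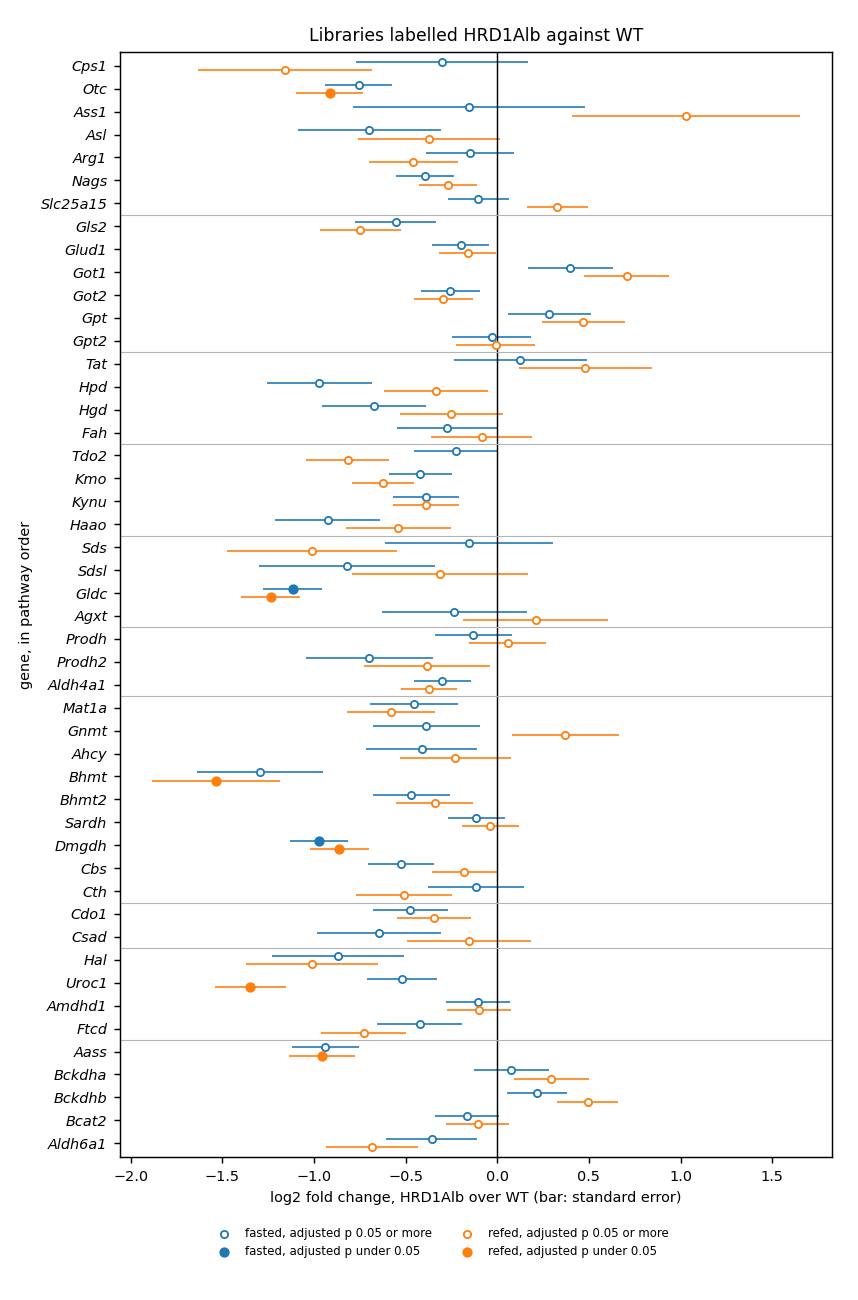
Log2 fold change of HRD1Alb over WT (x axis) for each of the 48 genes (y axis, pathway order) in fasted (blue) and refed (orange) liver, with the standard error as bar; filled points passed an adjusted p of 0.05. Estimates lie left of 0 for 43 genes in fasted and 38 in refed liver, and the filled points are 2 and 6. Of all 14328 tested genes, 7479 and 6824 had estimates below 0.

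The second question was how refeeding for 4 h changed these mRNAs in each genotype. In WT liver, 2 of the 48 genes fell, *Got1* and *Aass*, and 0 rose, where 1.41% of all tested genes were called lower and 1.2% higher. In HRD1Alb liver, 4 fell, namely *Got1*, *Aass*, *Tdo2* and *Gldc*, and 2 rose, namely *Nags* and *Glud1*, where 5.05% were called lower and 5.43% higher. Both refed libraries lay below both fasted ones for 20 genes in WT liver (29.6% of all genes) and above for 11 (30.8%), and in HRD1Alb liver for 12 (29.5%) and 11 (29.2%). The median log2 fold change in WT liver was -0.06, beside 0.00 over all tested genes. With library size alone it was 0.09, beside 0.15 over all genes, so the distance from all genes stayed at -0.06. It was 0.07 without WT fasted replicate 2, beside 0.04, and -0.16 without WT fasted replicate 1, beside 0.01. In HRD1Alb liver the median of the 48 genes was 0.00, beside 0.02 over all genes. It was 0.21 without HRD1Alb refed replicate 1, beside -0.05, and -0.20 without HRD1Alb refed replicate 2, beside 0.02. The value over both thus averages libraries that differ in sign. With the transcript length offset it was -0.19, beside 0.00. The libraries of one genotype serve in both a genotype and a refeeding comparison, so these comparisons are not independent of each other.

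In WT liver the 2 refeeding calls became 0 when any 1 fasted library or any 1 refed WT library was left out and 11 without either refed HRD1Alb library, where 17.2% and 17% of all genes were called. In HRD1Alb liver the 6 became 0 without either fasted HRD1Alb library and in a fit to the 4 HRD1Alb libraries alone. They became 1 without either refed WT library and 2 without either fasted WT library, where 3.05% to 4.66% of all genes were called. They became 23 without HRD1Alb refed replicate 1, where 51.4% of all genes were called, and 16 without HRD1Alb refed replicate 2, where 19.7% were. In these fits too, the share of all tested genes called fell or rose with the count among the 48. Whether the genotypes differed in their refeeding response was tested as an interaction. It called 0 of the 48 genes, and 0% of all genes, by edgeR's quasi-likelihood test with Benjamini-Hochberg adjustment. DESeq2 also called 0 of the 48, beside 0.635% of all genes. At an unadjusted p under 0.05, 1 gene had a lower response in HRD1Alb liver, *Uroc1* (adjusted p = 0.561). The count was 10 without HRD1Alb refed replicate 1, where 33.4% of all genes were called, and 2 without HRD1Alb refed replicate 2, where 0.69% were.

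**Figure D3:**
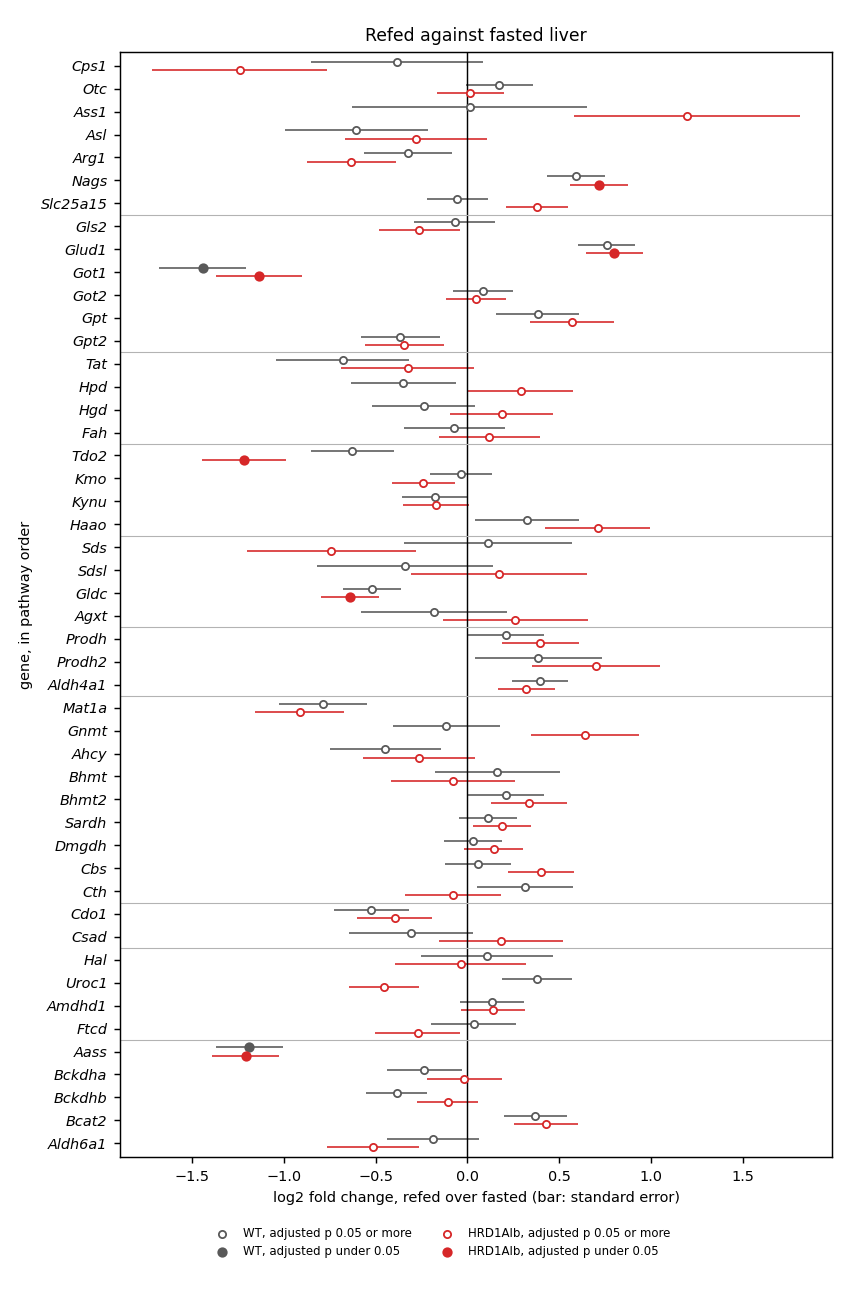
Log2 fold change of refed over fasted liver (x axis) for each of the 48 genes (y axis, pathway order) in WT (grey) and HRD1Alb (red) libraries, with the standard error as bar; filled points passed an adjusted p of 0.05. *Got1* and *Aass* are filled to the left of 0 in both genotypes, and in HRD1Alb liver *Tdo2* and *Gldc* are also filled to the left and *Nags* and *Glud1* to the right.

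In the urea cycle group, 1 of 7 genes was called between genotypes and 1 between feeding states. *Otc*, the matrix enzyme that joins carbamoyl phosphate to ornithine, lies on chromosome X (GRCm38, chrX:10252305-10321024, plus strand). It was at 447 and 443 CPM in fasted WT, 253 and 273 in fasted HRD1Alb, 521 and 481 in refed WT, and 226 and 305 CPM in refed HRD1Alb liver. Every HRD1Alb library lay below every WT library. The log2 fold change was -0.92 (SE 0.18, adjusted p = 0.028) in refed liver and -0.76 (SE 0.18, adjusted p = 0.0945) in fasted liver, by edgeR's quasi-likelihood test. The refed call was lost without any 1 of the fasted or refed WT libraries or of the fasted HRD1Alb libraries (adjusted p 0.0562 to 0.181), and its adjusted p lay between 0.000501 and 0.181 over 17 alternatives.

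*Nags*, whose product N-acetylglutamate is required for *Cps1* activity, was at 77.2 and 73.9 CPM in fasted WT and 113 and 115 CPM in refed WT liver. In HRD1Alb liver it was at 58.4 and 56.5 CPM fasted and 84.8 and 104 CPM refed. Refed libraries were above fasted ones in both genotypes. The rise passed the test in HRD1Alb liver (log2 fold change 0.72, SE 0.16, adjusted p = 0.0335) and not in WT liver (0.59, SE 0.16, adjusted p = 0.114), and the interaction was 0.13 (SE 0.22, adjusted p = 0.832). The call was lost without any 1 library other than the refed HRD1Alb pair (adjusted p 0.0766 to 0.233). *Cps1*, the entry enzyme, was at 5981 and 6100 CPM in fasted WT and 6354 and 3455 in fasted HRD1Alb liver, where the groups overlapped. In refed liver it was at 4770 and 4485 CPM against 3048 and 1101 CPM, with no overlap and a log2 fold change of -1.16 (SE 0.47, adjusted p = 0.138). *Arg1*, *Asl* and the ornithine carrier gene *Slc25a15* did not pass any of the 5 tests, and the 7 genes had a median log2 fold change between genotypes of -0.30 in fasted and -0.37 in refed liver.

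Among the 6 genes of glutamate metabolism and transamination, 0 were called between genotypes and 2 with refeeding. *Got1*, the cytosolic aspartate aminotransferase, was at 477 and 500 CPM in fasted WT and 212 and 148 CPM in refed WT liver. It was at 708 and 579 CPM in fasted and 254 and 332 CPM in refed HRD1Alb liver. Refed libraries lay below fasted ones in both genotypes, and HRD1Alb libraries above WT ones in both feeding states. *Got1* fell on refeeding by 1.44 on the log2 scale in WT (SE 0.24, adjusted p = 0.0336) and by 1.14 in HRD1Alb liver (SE 0.23, adjusted p = 0.0285; edgeR). Between genotypes its log2 fold change was 0.40 (adjusted p = 0.418) in fasted and 0.70 (adjusted p = 0.0862) in refed liver. Both refeeding calls were lost without any 1 fasted or refed WT library or fasted HRD1Alb library, with adjusted p up to 0.271 in WT and 0.193 in HRD1Alb liver. Its mitochondrial counterpart *Got2* moved by 0.09 and 0.05 on refeeding, neither called.

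The promoter of *Got1* is shown because it was the only one among the 42 RefSeq promoters (300 bases each, GRCm38.p6) that matched 37 of the 48 genes to hold the core of the amino acid response element. That core, TGATGCAA on either strand, occurs in 0.895% of 32851 promoters of this length. The cAMP response element TGACGTCA (1.79% of promoters) and the palindromic C/EBP site TTGCGCAA (0.183%) occurred in 0 of the 42, so no 2 motifs overlapped in them. The 250 bases before the start of *Got1* (chr19:43524606-43524855, minus strand) are printed 5′ to 3′ with the match, which begins 102 bases before the start and reads as the reverse complement of the core, in capitals. Those of *Gldc* (chr19:30175442-30175691, minus strand), the gene with the smallest adjusted p between genotypes in both feeding states, held none of the 3 motifs.
Got1: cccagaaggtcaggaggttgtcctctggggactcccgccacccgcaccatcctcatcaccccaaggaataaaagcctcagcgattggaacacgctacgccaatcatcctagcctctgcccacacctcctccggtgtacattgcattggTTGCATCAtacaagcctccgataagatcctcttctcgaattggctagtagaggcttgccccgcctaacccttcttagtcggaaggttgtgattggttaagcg
Gldc: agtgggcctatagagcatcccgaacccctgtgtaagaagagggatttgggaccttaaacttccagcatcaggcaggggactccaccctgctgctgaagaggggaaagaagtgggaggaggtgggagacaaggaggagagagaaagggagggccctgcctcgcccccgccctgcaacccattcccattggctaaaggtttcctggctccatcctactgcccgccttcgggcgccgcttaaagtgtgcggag

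*Glud1*, the mitochondrial glutamate dehydrogenase that releases ammonia, was at 592 and 676 CPM in fasted WT and 1062 and 1085 CPM in refed WT liver. It was at 546 and 556 CPM in fasted and 929 and 990 CPM in refed HRD1Alb liver. All refed libraries lay above all fasted ones. The log2 fold change on refeeding was 0.80 (SE 0.16, adjusted p = 0.0245) in HRD1Alb and 0.76 (SE 0.16, adjusted p = 0.054) in WT liver, with an interaction of 0.04 (SE 0.22, adjusted p = 0.95). The HRD1Alb call was lost without any 1 library other than the refed HRD1Alb pair (adjusted p 0.0556 to 0.193). *Gls2*, the liver glutaminase, was at 292 and 291 CPM in refed WT against 137 and 210 CPM in refed HRD1Alb liver (log2 fold change -0.75, SE 0.22, adjusted p = 0.068). *Gpt*, the cytosolic alanine aminotransferase, had HRD1Alb libraries above WT ones in both feeding states (log2 fold changes 0.28 and 0.47, adjusted p = 0.57 and 0.188), and its mitochondrial counterpart *Gpt2* differed between genotypes by -0.03 and -0.01.

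The aromatic amino acid genes gave 1 call among 8. In the tyrosine group none of the 4 genes was called in any comparison. *Hpd*, the most abundant of them, was at 3108 and 4244 CPM in fasted WT against 2012 and 1736 in fasted HRD1Alb liver, and at 2717 and 3059 against 1707 and 2877 CPM in refed liver. The groups were apart in the fasted state (log2 fold change -0.97, SE 0.29, adjusted p = 0.139) and overlapped in the refed state (-0.33, SE 0.29, adjusted p = 0.42). *Tat*, tyrosine aminotransferase, overlapped between genotypes in both states, and *Hgd* and *Fah*, which act later on the path, had log2 fold changes of -0.67 and -0.28 in fasted liver without a call.

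*Tdo2*, the tryptophan dioxygenase that starts the kynurenine pathway, was at 3165 and 2286 CPM in fasted WT and 1911 and 1622 CPM in refed WT liver. In HRD1Alb liver it was at 2606 and 2050 CPM fasted and 1036 and 970 CPM refed. The refed HRD1Alb libraries were the lowest. *Tdo2* fell on refeeding in HRD1Alb liver by 1.22 on the log2 scale (SE 0.23, adjusted p = 0.022), and the change in WT liver was -0.63 (SE 0.23, adjusted p = 0.227), with an interaction of -0.59 (SE 0.32, adjusted p = 0.614). The call was lost without either fasted HRD1Alb library (0.167 and 0.112) or either refed WT library (0.0571 and 0.0566). In refed liver, *Haao* was at 284 and 345 CPM in the WT against 152 and 281 CPM in the HRD1Alb libraries. Both HRD1Alb libraries were below both WT libraries there for 30.1% of all tested genes and for all 4 tryptophan genes. Their log2 fold changes there were -0.82 for *Tdo2* (adjusted p = 0.0574), -0.62 for *Kmo* (0.0558), -0.54 for *Haao* (0.219) and -0.39 for *Kynu* (0.175), so none was called.

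In the serine, glycine and glyoxylate group, *Gldc* (GRCm38, chr19:30098447-30175429, minus strand) was called in 3 of the 5 tests. It was at 420 and 385 CPM in fasted WT, 190 and 181 in fasted HRD1Alb, 305 and 256 in refed WT, and 115 and 123 CPM in refed HRD1Alb liver. The 4 HRD1Alb libraries were all below the 4 WT libraries, and the 2 refed HRD1Alb libraries lay close together. It was lower in HRD1Alb liver by a log2 fold change of -1.12 in fasted (SE 0.16, adjusted p = 0.0331) and -1.24 in refed liver (SE 0.16, adjusted p = 0.0109), by edgeR's quasi-likelihood test. On refeeding it fell by 0.64 on the log2 scale in HRD1Alb liver (SE 0.16, adjusted p = 0.0467), and the change in WT liver was -0.52 (adjusted p = 0.156). The refed genotype call was lost only without either refed WT library (0.104 and 0.0917) and in the fit to the 4 refed libraries (0.115). The fasted one was lost without any 1 fasted library or refed WT library (adjusted p 0.0896 to 0.308), and the refeeding call without any 1 library other than the refed HRD1Alb pair (adjusted p 0.0933 to 0.255) and in 11 of 17 alternatives in all. Of the serine dehydratase genes, *Sds* was at 123 and 101 CPM in refed WT against 26.4 and 84.8 CPM in refed HRD1Alb liver (adjusted p = 0.17), and *Sdsl* overlapped there. *Agxt*, alanine-glyoxylate aminotransferase, overlapped in all 4 comparisons and ranged from 258 to 524 CPM within the fasted WT pair alone.

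In the proline group none of 3 genes was called. *Aldh4a1*, the mitochondrial dehydrogenase that ends proline breakdown in glutamate, was at 292 and 342 CPM in fasted WT, 249 and 265 in fasted HRD1Alb, 409 and 425 in refed WT, and 313 and 330 CPM in refed HRD1Alb liver. HRD1Alb libraries lay below WT ones in both states (log2 fold changes -0.30 and -0.37, adjusted p = 0.356 and 0.139), and refed above fasted ones in both genotypes (0.40 and 0.32, adjusted p = 0.258 and 0.193).

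The methionine and methyl transfer group held 2 of the 6 genotype calls in refed liver, and 9 of its 9 estimates in fasted and 8 of 9 in refed liver were below 0. Of all 14328 tested genes, 7479 in fasted and 6824 in refed liver had estimates below 0. *Bhmt*, which remethylates homocysteine with betaine as methyl donor, was at 2847 and 4017 CPM in fasted WT against 1550 and 1253 CPM in fasted HRD1Alb liver. In refed liver it was at 3405 and 4278 against 903 and 1749 CPM. Every HRD1Alb library was below every WT library, although the 2 refed HRD1Alb libraries were far apart. The log2 fold change was -1.53 in refed liver (SE 0.35, adjusted p = 0.036), the largest in size among the genotype calls, and -1.29 in fasted liver (SE 0.34, adjusted p = 0.114). It was -1.14 without HRD1Alb refed replicate 1 and -2.09 without HRD1Alb refed replicate 2, and the call was lost without any other 1 library (adjusted p 0.0585 to 0.2).

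*Dmgdh*, which oxidises the dimethylglycine left when betaine gives up its methyl group, was at 586 and 638 CPM in fasted WT against 327 and 297 CPM in fasted HRD1Alb liver. In refed liver it was at 627 and 625 against 318 and 371 CPM. The genotypes did not overlap in either state. It was lower in HRD1Alb liver by log2 fold changes of -0.97 (SE 0.16, adjusted p = 0.0438) in fasted and -0.86 (SE 0.16, adjusted p = 0.0225) in refed liver (edgeR). With a term for the replicate number in the edgeR fit, the fasted call was lost (adjusted p = 0.0597). The fasted call was lost without any 1 fasted library or refed WT library (adjusted p 0.118 to 0.348) and with library size alone (0.0509). The refed call was lost without WT fasted replicate 2, either fasted HRD1Alb library or either refed WT library (adjusted p 0.0547 to 0.164).

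*Bhmt*, *Bhmt2* and *Dmgdh* are neighbours on chromosome 13 (GRCm38, chr13:93616675-93637961 and chr13:93655720-93674302 on the minus strand and chr13:93674433-93752833 on the plus strand). *Bhmt2*, a second homocysteine methyltransferase, was not called (log2 fold changes -0.47 and -0.34, adjusted p = 0.29 and 0.277), and neither was *Sardh*, which oxidises the next product sarcosine (-0.11 and -0.04). *Mat1a*, which makes the methyl donor S-adenosylmethionine, was at 11302 and 15034 CPM in fasted WT and 7576 and 7683 CPM in refed WT liver, and at 10715 and 8500 against 4448 and 5748 CPM in HRD1Alb liver. Refed libraries were lower in both genotypes, with log2 fold changes of -0.79 (adjusted p = 0.159) in WT and -0.91 (adjusted p = 0.0546) in HRD1Alb liver. *Gnmt*, *Ahcy*, *Cbs* and *Cth*, which carry the methionine cycle on to homocysteine and cysteine, were not called in any comparison. In the cysteine to taurine group, *Cdo1* was at 2182 and 2767 CPM in fasted WT, 1869 and 1693 in fasted HRD1Alb, 1570 and 1873 in refed WT, and 1233 and 1477 CPM in refed HRD1Alb liver. Neither it nor *Csad* passed a test.

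Among the 4 histidine genes, *Uroc1*, the urocanase that acts after histidase (*Hal*), was at 387 and 415 CPM in fasted WT and 287 and 273 CPM in fasted HRD1Alb liver. In refed liver it was at 491 and 551 against 172 and 237 CPM. It was thus highest in refed WT and lowest in refed HRD1Alb liver. The log2 fold change between genotypes was -1.35 in refed (SE 0.19, adjusted p = 0.0126) and -0.52 in fasted liver (SE 0.19, adjusted p = 0.209). Refeeding gave 0.38 (SE 0.19, adjusted p = 0.396) in WT and -0.45 (SE 0.19, adjusted p = 0.154) in HRD1Alb liver, and the interaction of -0.83 (SE 0.27) had an adjusted p of 0.561. The refed genotype call was lost without either refed WT library (0.104 and 0.121) and in the fit to the 4 refed libraries (0.12). *Hal* was at 448 and 439 against 136 and 304 CPM in refed liver (log2 fold change -1.01, SE 0.36, adjusted p = 0.102). *Ftcd*, which moves the formimino group to tetrahydrofolate, had a log2 fold change of -0.73 there (adjusted p = 0.0801), and *Amdhd1*, which lies between *Uroc1* and *Ftcd* on the path, overlapped in all 4 comparisons.

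*Aass*, the bifunctional enzyme that starts mitochondrial lysine breakdown, was called in 3 of the 5 tests. It was at 1218 and 1337 CPM in fasted WT and 574 and 548 CPM in refed WT liver, and at 751 and 582 against 304 and 274 CPM in HRD1Alb liver. Refed libraries were below fasted ones in each genotype and HRD1Alb libraries below WT ones in each feeding state. It fell on refeeding by 1.19 in WT (SE 0.18, adjusted p = 0.0303) and by 1.21 in HRD1Alb liver (SE 0.18, adjusted p = 0.0124) on the log2 scale, with an interaction of -0.02 (SE 0.26, adjusted p = 0.979). Between genotypes the log2 fold change was -0.96 in refed (SE 0.18, adjusted p = 0.0241) and -0.94 in fasted liver (SE 0.18, adjusted p = 0.0575). The refed genotype call was lost without any 1 fasted library or refed WT library (adjusted p 0.0502 to 0.163). The refeeding call in WT was lost without any 1 fasted library or refed WT library (adjusted p 0.0857 to 0.272) and with library size alone (0.0558), and that in HRD1Alb liver without either fasted HRD1Alb library (0.115 and 0.0703).

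None of the 4 branched-chain genes was called in any comparison. *Bckdha* and *Bckdhb*, the E1 subunits of the branched-chain ketoacid dehydrogenase, had log2 fold changes between genotypes of 0.08 and 0.22 in fasted and 0.30 and 0.49 in refed liver, the last with an adjusted p of 0.09. For *Bckdhb* both HRD1Alb libraries were above both WT libraries in each state, at 94.2 and 119 against 72.2 and 79.2 CPM in refed liver. *Aldh6a1*, the methylmalonate semialdehyde dehydrogenase of valine breakdown, was at 465 and 270 against 581 and 599 CPM in refed liver (adjusted p = 0.109) and at 549 and 500 against 663 and 683 CPM in fasted liver (adjusted p = 0.507), with no overlap in either state. *Bcat2*, the mitochondrial branched-chain aminotransferase, ranged from 34 to 53.2 CPM over all libraries, and in refed liver it was at 49.3 and 48.4 against 53.2 and 52 CPM (adjusted p = 0.677).

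**Figure D4:**
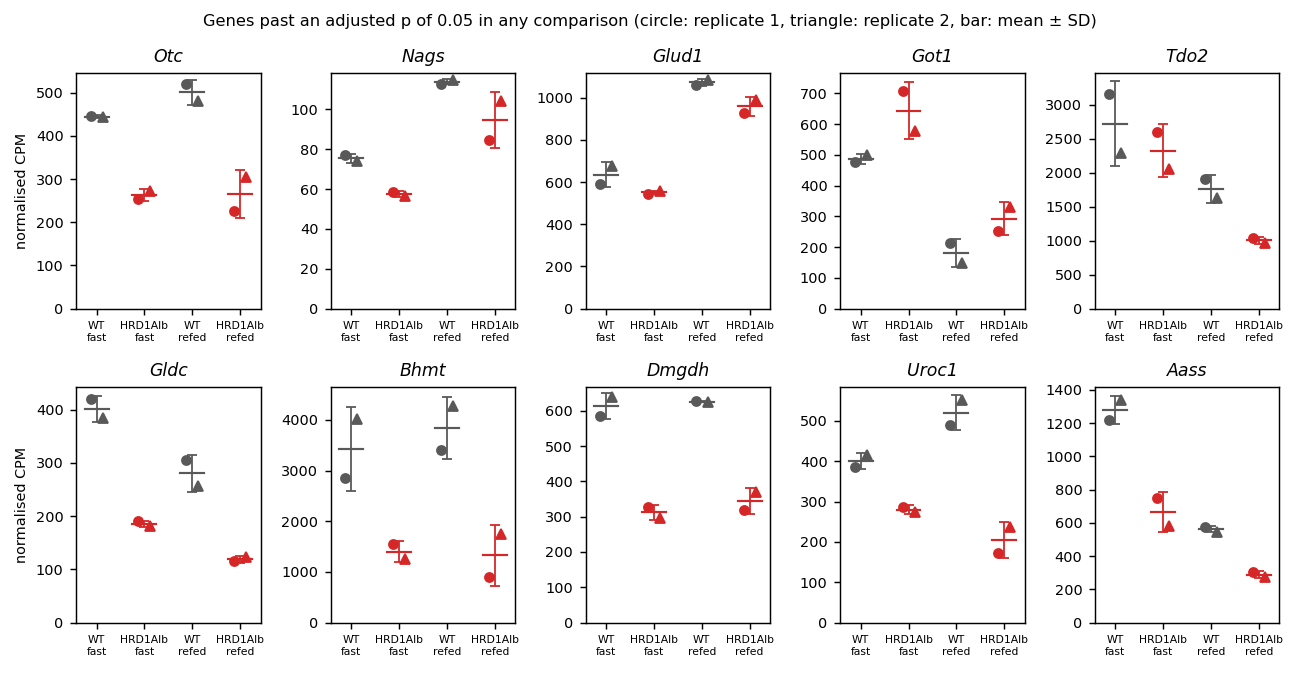
Normalised CPM (y axis, from 0) of the 10 genes that passed an adjusted p of 0.05 in any comparison, by group (x axis), with circles for replicate 1, triangles for replicate 2 and bars for mean ± SD (n = 2). *Otc*, *Nags*, *Glud1*, *Gldc*, *Bhmt*, *Dmgdh*, *Uroc1* and *Aass* show HRD1Alb points below WT points in both feeding states, and *Got1* shows them above. *Got1*, *Tdo2*, *Gldc* and *Aass* show refed points below fasted points in both genotypes, and *Nags* and *Glud1* show them above.

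A wider list held 64 genes of the same pathways, 63 of which were tested. Between genotypes it gave 1 lower and 0 higher calls in fasted liver and 7 lower and 0 higher in refed liver. Of all tested genes, 0.433% were called lower and 0.921% higher in fasted liver, and 4.84% and 7.09% in refed liver. The median log2 fold changes of the wider list were -0.25 and -0.30. *Srr*, serine racemase, was at 68.1 and 66.3 CPM in fasted WT against 29.6 and 28.7 CPM in fasted HRD1Alb liver and was lower in both states (log2 fold changes -1.20 and -0.80, adjusted p = 0.0211 and 0.0203). In refed liver the calls took in *Agphd1* (hydroxylysine kinase, -1.54, adjusted p = 0.0126), *Abat* (GABA aminotransferase, -1.35, 0.018), *Ido2* (a second tryptophan-cleaving dioxygenase gene, -1.19, 0.0121), *Slc25a13* (the aspartate-glutamate carrier citrin, -0.69, 0.0288), *Acadsb* (short/branched-chain acyl-CoA dehydrogenase, -0.68, 0.0454) and *Pcca* (a subunit of propionyl-CoA carboxylase, -0.54, 0.0497). On refeeding, 1 of the 63 rose and 1 fell in WT liver, where 1.2% of all tested genes were called higher and 1.41% lower. In HRD1Alb liver 3 rose and 3 fell, where 5.43% of all tested genes were called higher and 5.05% lower.

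Of 14 genes for regulators of these enzymes, 0 were called between genotypes in fasted liver, and 1 was higher and 1 lower in refed liver. The shares of all tested genes were 0.921% higher and 0.433% lower in fasted liver, and 7.09% and 4.84% in refed liver. *Cebpb*, a transcription factor of the C/EBP family, was at 30.8 and 25.8 CPM in refed WT against 54.2 and 78.1 CPM in refed HRD1Alb liver (log2 fold change 1.22, SE 0.24, adjusted p = 0.0249). *Ppara*, the fatty acid receptor that governs the fasting response of liver, was at 219 and 227 against 74.6 and 63.7 CPM (-1.69, SE 0.18, adjusted p = 0.00817). *Ppara* was also the 1 regulator called on refeeding in WT liver, where it fell by 1.13 on the log2 scale (SE 0.18, adjusted p = 0.031; edgeR). In HRD1Alb liver 2 of the 14 rose and 2 fell on refeeding. Of all tested genes, 5.43% were called higher and 5.05% lower there, and 1.2% and 1.41% in WT liver. Whether the levels of these regulators bear on those of the enzymes was not tested.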

How the data were processed

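Liver RNA of 8 samples was sequenced by the study on an Illumina NextSeq 500. The authors deposited raw, whole-number counts for each gene symbol, not normalised, in a separate file for each sample. Their methods name ERANGE for counting and a moderated limma test, whereas the submitters' processing notes name cutadapt, STAR, HTSeq and DESeq2 and the build mm10. Which of these made the counts is not given in the sources used here, and neither are strand, versions and annotation. Samples were grouped by their labels.

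Counts were tested in R 4.3.3 with edgeR 4.0.16. The filter on low counts (filterByExpr, minimum count 10, minimum total 15) kept 14328 of 18084 genes with a count. One quasi-likelihood model with 4 groups was fitted to the TMM-normalised counts of 8 libraries (common dispersion 0.0573, median prior degrees of freedom 3.38), with 5 contrasts, Benjamini-Hochberg adjustment over all tested genes and a threshold of 0.05. The SE is the log2 fold change over the square root of F. Positions and lengths came from GENCODE M21 on GRCm38, which matched 22844 symbols, and promoters from RefSeq. The members, lists and tests were chosen with earlier results of these data known. Values per sample are given for each member called in any contrast. In groups without one, they are given for the member with the highest mean CPM, not divided by transcript length. Of the wider list and of the regulators, at most 8 each that were called between genotypes are named, by adjusted p. Values per sample of other members were chosen after they were seen. The alternatives were RLE normalisation, DESeq2 1.42.0, limma-trend (limma 3.58.1), no filter, a transcript length offset, a replicate block, and each library left out; library size alone and fits to 4 libraries were added after the data were seen. The edgeR fit was tested on data simulated at the common dispersion, with 100 genes changed 2-fold and 100 changed 4-fold between genotypes in fasted liver. It called 20% of the 2-fold and 97% of the 4-fold changes, with 7 false calls among 14026 genes. Most changes of 2-fold were thus missed in this simulation. Figures used Python 3.11.15 and matplotlib 3.10.9.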

Additional observations from a re-analysis of the deposited data

How the results depend on the processing

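The 16 calls of single genes kept their direction under all 17 alternatives (272 values, 0 reversed), and 172 of these values stayed past the threshold while 100 did not. These 16 were selected as called in the same data, and the 2 groups of each did not overlap. A reversal was therefore unlikely in advance, and its absence adds no support. Counts of called genes moved more, and the shares of all tested genes called by these fits moved too. Between genotypes, these shares were 1.35% in fasted and 11.9% in refed liver in the main fit. They were 7.64% and 22.2% with DESeq2, 5.44% and 19.3% with the transcript length offset, and 6.19% and 15.8% with library size only. With only the 4 samples of the contrast they were 14.6% and 0%. For HRD1Alb against WT in fasted liver, the count of 2 was 7 with DESeq2, 1 with library size only, 5 with the transcript length offset, 14 with only the 4 samples of the contrast, and 0 to 20 with each library left out. In refed liver, the count of 6 was 14 with DESeq2 (13 lower and 1 higher), 15 with the length offset, 0 with only the 4 samples of the contrast and 0 to 21 with each library left out, and library size only called 6 lower and 3 higher. For refeeding in WT liver, the count of 2 was 5 with DESeq2, 4 with the length offset, 7 with only the 4 samples and 0 to 11 with each library left out. In HRD1Alb liver, the count of 6 was 11 with the length offset, 0 with only the 4 samples and 0 to 23 with each library left out. The interaction count of 0 was 0 to 10 with each library left out. For refeeding, the main fit called 2.61% of all genes in WT and 10.5% in HRD1Alb liver. The shares were 7.45% and 20.2% with DESeq2 and 5.83% and 15.6% with the length offset. With only the 4 samples they were 14% and 0%. The cause of these shifts in counts and shares was not tested. Where an arm was left with 1 library, that library was taken to vary like the other groups.

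Replicate numbers appear in the labels but mark no shared animal, batch or day, and same-numbered libraries deviated together only weakly (r = 0.0161 to 0.179 over the 6 pairs of groups), so the samples share a number and are not treated as paired. With the replicate block, the counts were 1 in fasted and 7 in refed liver between genotypes. On refeeding they were 2 in WT and 5 in HRD1Alb liver. In the same order, 0.831%, 9.74%, 2.13% and 9.37% of all genes were called. The block ended 2 calls of single genes, *Dmgdh* in fasted liver (adjusted p = 0.0597, edgeR) and *Gldc* on refeeding in HRD1Alb liver (0.0553), and no other call. The block with the length offset gave 4, 17, 3 and 10, beside 4.11%, 18.4%, 5.12% and 14.7% of all genes. The depth of 40210576 or more counts per library put all 48 genes above the limit of 3 counts, so depth did not limit their detection. No batch is labelled, so no value within batches can be given.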
